A study of Mus musculus with 99 samples.

Results

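RNA from mouse embryonic stem cells (ESCs) that carry only catalytically inactive RING1B was compared with RNA from ESCs left without RING1B and RING1A. The members are the 4 RNA-seq libraries of 99 samples in the series that come from the RING1B I53S line and from the Parental line after tamoxifen treatment (+OHT), 2 replicates of each, taken by their sample labels. Parental cells are RING1A-/- and RING1B fl/fl and carry ROSA26::creERT2, a Cre recombinase that OHT activates to delete RING1B, in a 129P2/Ola background. RING1B I53S cells are a derivative of that line which also expresses mouse RING1B with the I53S change, tagged with 2xFLAG-HA, from a CAG promoter. The derivative was obtained by puromycin selection of clones and a screen by Western blot, so a difference between the lines includes whatever set the selected clone apart. All 4 libraries share the RING1A deletion and 72 h of 0.5 µM OHT, and all were grown in serum with 2i and LIF on gelatin. The 4 libraries of the same lines without OHT (−OHT) come from cells given the vehicle, ethanol, for 72 h, in which both lines keep their own RING1B. They share no library with this contrast and were used for comparison. Libraries of RING1B WT cells, which carry the unchanged transgene, are given beside some values.

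RING1B, encoded by Rnf2, is the E3 ligase subunit of Polycomb repressive complex 1 (PRC1) and places a single ubiquitin on a lysine of histone H2A (H2AK119ub1), a mark of repressed developmental genes. Canonical PRC1 holds a CBX and a PHC subunit and can compact chromatin, whereas variant PRC1 holds RYBP or YAF2. The I53S change lies in the RING domain and disturbs the contact with the E2 enzyme, so that the protein can still assemble into PRC1 but does not ubiquitinate H2A. The contrast therefore asks which transcript levels differ between cells with an inactive RING1B and cells with none. A gene was called when its log2 fold change was at least 1.5 in either direction and its Benjamini-Hochberg adjusted p (FDR) in edgeR's quasi-likelihood test was under 0.05. Levels are CPM (counts scaled to library size, here after TMM scaling), and positive log2 fold changes mean higher in RING1B I53S.

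The codon that the change affects is shown because it defines the comparison. In mouse Rnf2 (GENCODE M21, GRCm38), isoleucine 53 is encoded by ATT at chr1:151476961-151476963 on the minus strand, in exon 3 of 7 of transcript Rnf2-201, whose coding sequence has 1008 bases. Codons 45 to 61 are printed 5′ to 3′ with codon 53 in capitals.
Rnf2 codons 45 to 61: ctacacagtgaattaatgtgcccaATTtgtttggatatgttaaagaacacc

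The promoters of 4 germline genes are shown because each was called lower and PCGF6, a subunit of a variant PRC1, had peaks there. Each window is a RefSeq promoter of 300 bases (GRCm38.p6), from 250 before to 50 after the annotated start site. Capitals mark matches to CACGTG, the E-box of MAX and MGA, or to GCGGGAA (printed as its reverse complement where it lies on the other strand), which was searched as an E2F-like word; both strands were read. The windows are Dazl at chr17:50293571-50293870 (minus strand), Asz1 at chr6:18109012-18109311 (minus), Slc25a31 at chr3:40708621-40708920 (plus) and Fkbp6 at chr5:135349995-135350294 (minus).
Dazl: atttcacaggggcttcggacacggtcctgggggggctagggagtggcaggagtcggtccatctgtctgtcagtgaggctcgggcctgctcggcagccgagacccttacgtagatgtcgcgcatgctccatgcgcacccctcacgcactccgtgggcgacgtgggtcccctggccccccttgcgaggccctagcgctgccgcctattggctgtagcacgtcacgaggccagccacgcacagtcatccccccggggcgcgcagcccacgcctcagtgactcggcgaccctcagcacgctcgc
Asz1: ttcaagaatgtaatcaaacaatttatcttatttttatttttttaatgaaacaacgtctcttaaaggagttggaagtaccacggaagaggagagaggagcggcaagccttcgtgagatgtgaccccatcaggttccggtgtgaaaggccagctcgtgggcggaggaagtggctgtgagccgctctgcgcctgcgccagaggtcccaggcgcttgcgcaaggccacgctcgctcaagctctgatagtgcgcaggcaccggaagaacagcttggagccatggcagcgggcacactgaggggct
Slc25a31: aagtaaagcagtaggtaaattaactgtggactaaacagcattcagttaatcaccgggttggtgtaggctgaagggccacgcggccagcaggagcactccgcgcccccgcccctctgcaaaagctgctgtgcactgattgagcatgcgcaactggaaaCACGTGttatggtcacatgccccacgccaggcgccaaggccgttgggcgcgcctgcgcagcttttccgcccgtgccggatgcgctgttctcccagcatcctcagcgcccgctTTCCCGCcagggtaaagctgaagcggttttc
Fkbp6: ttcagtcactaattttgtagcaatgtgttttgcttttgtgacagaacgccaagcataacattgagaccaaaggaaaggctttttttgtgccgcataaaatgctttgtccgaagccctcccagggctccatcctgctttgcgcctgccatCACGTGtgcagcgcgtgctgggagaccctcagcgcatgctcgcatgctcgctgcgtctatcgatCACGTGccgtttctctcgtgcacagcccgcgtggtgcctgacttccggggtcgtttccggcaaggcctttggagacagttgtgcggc
The Slc25a31 window held 1 match to CACGTG and 1 to GCGGGAA, the Fkbp6 window held 2 to CACGTG, and the windows of Dazl and Asz1 held neither. Among 32851 RefSeq promoters of the same length, 7.15% held CACGTG and 4.6% held GCGGGAA. The 4 windows held 28, 17, 22 and 21 CpG dinucleotides for Dazl, Asz1, Slc25a31 and Fkbp6, against a median of 7 over all promoters.

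The 4 libraries held between 8701279 and 11124825 counted reads. RING1B I53S +OHT replicate 1 stood apart from its partner: the chi-square per gene between the 2 RING1B I53S +OHT libraries was 24.07, against 5.78 to 15 in the other pairs, and 3.66% of its counts were mitochondrial, against 2.39% to 3.07% elsewhere. The calls and the folds that move most without it are given below with and without it. The replicates are described as biological, but nothing says how the cultures were separated, so p-values measure a spread between libraries. That spread was estimated over 12 libraries in 6 groups, so it can understate the spread of the RING1B I53S +OHT pair. The ESC identity of the libraries was checked with pluripotency genes. Pou5f1 (OCT4) ranged from 284 to 333 CPM and Nanog from 168 to 222 CPM over the 4 libraries, and neither was called. Over 24 naive pluripotency genes the summed level was 5283 and 5328 CPM in Parental +OHT and 5460 and 5568 CPM in RING1B I53S +OHT. Without OHT it was higher, at 12750 and 14270 CPM in Parental and 10880 and 12930 CPM in RING1B I53S cells. Of 12 fibroblast markers, 7 passed the filter on low counts and none was called. Their summed level with OHT was 77 and 79.5 CPM in Parental and 70.3 and 78.1 CPM in RING1B I53S cells. It was lower without OHT, at 24.69 and 24.11 CPM in Parental and 25.65 and 25.14 CPM in RING1B I53S cells.

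Rnf2 itself does not separate the lines by level. Its CPM was 144 and 167 in Parental +OHT and 167 and 239 in RING1B I53S +OHT cells, a log2 fold change of 0.38 (95% interval −0.02 to 0.79, FDR 0.993 by edgeR). Counts were summed over all exons of the gene, so transcripts without the deleted part and transgene transcripts are counted together, and neither the deletion nor the changed base can be checked from this value. Ring1, which encodes the deleted RING1A, was between 1.03 and 2.51 CPM in all 4 libraries.

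With OHT, 29 of 18154 tested genes were called between the lines (0.16%), 12 higher (0.0661%) and 17 lower (0.0936%) in RING1B I53S. The genes fall into a few groups. The 12 higher genes are 7 transcripts of the imprinted Dlk1-Dio3 region on chromosome 12, the Y chromosome genes Eif2s3y, Uty and Zfy1, the imprinted H19, and 2310003L06Rik. Of the 17 lower genes, 4 act in germ cells (Dazl, Asz1, Slc25a31, Fkbp6), 6 lie on chromosome X (Rhox13, Usp26, 4930502E18Rik, 1700013H16Rik, Xlr3a, Nxf3), 3 lie on distal chromosome 14 (Rgcc, Pou4f1, Tgds), 3 are the predicted genes Gm8994, Gm5662 and Gm5039, and 1 is Dnajc5g. The 2 groups did not overlap in CPM at any of the 29 genes; over all tested genes both RING1B I53S libraries lay above both Parental libraries at 15.6% and below them at 16.8%. The calls did not rest on the 4 libraries alike. Most were lost when either Parental library or RING1B I53S replicate 1 was left out, and most were kept without RING1B I53S replicate 2. Replicate 1 was the higher RING1B I53S library at 12 of the 12 higher genes and the lowest library at 15 of the 17 lower ones. Over all tested genes it was the lower of the pair at 9813 of 18154. Only Meg3, Rian, Gm37899, Mirg, Rgcc, Eif2s3y and Uty kept the call whichever of the 4 libraries was left out.

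**Figure D1:**
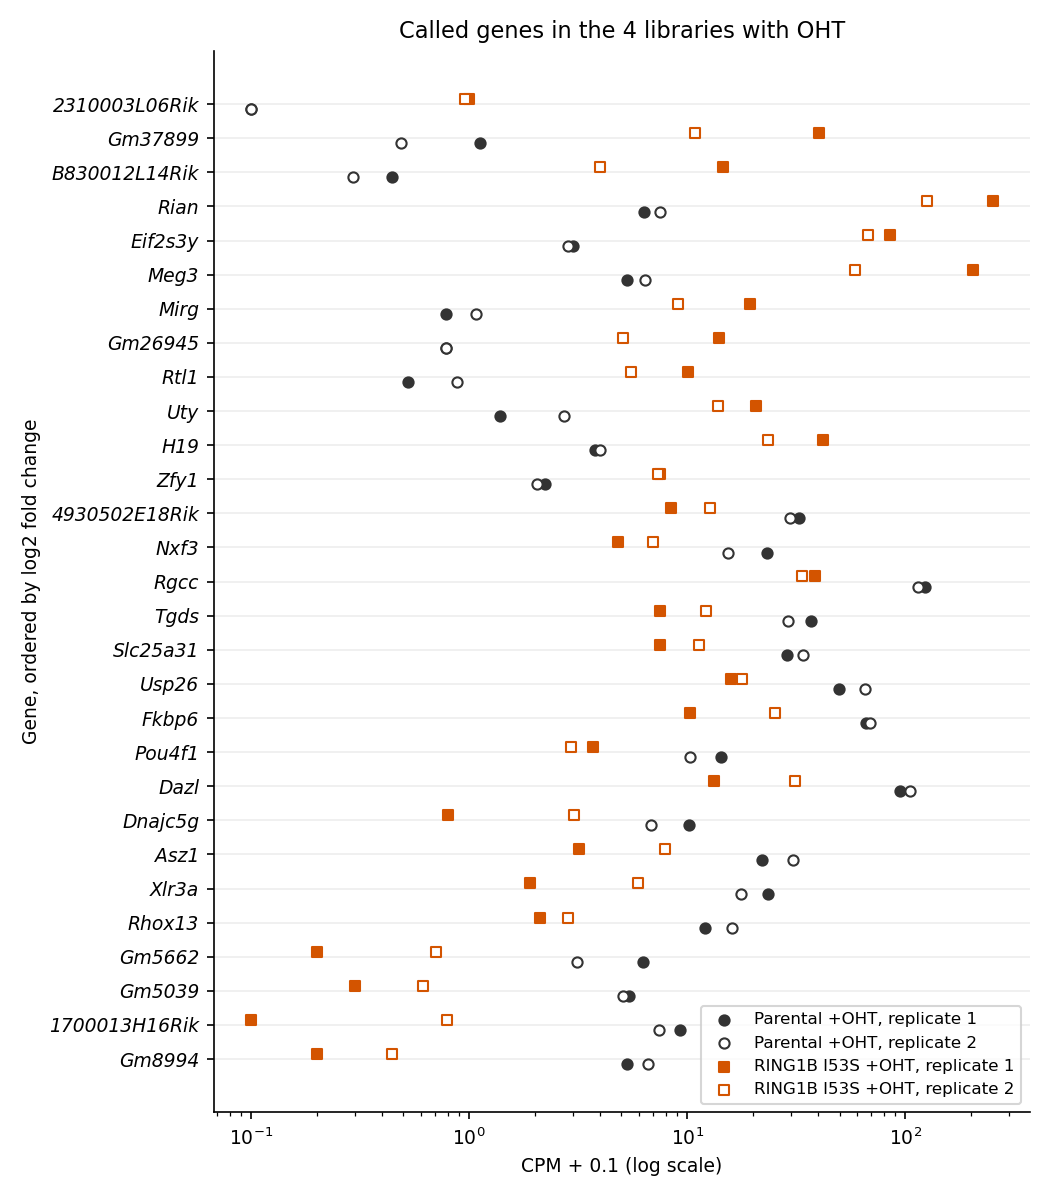
CPM (plus 0.1, log axis) of the 29 called genes in the 4 libraries with OHT, 1 row per gene ordered by log2 fold change. Black circles are Parental and orange squares RING1B I53S libraries, filled for replicate 1 and open for replicate 2; at all 12 higher genes the filled square lies to the right of the open one, and the groups do not overlap in any row.

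Of the 12 tested genes from Dlk1 to Dio3, 7 were called, each higher in RING1B I53S, with OHT and also without. This region is imprinted: Meg3, Rian and Mirg are noncoding RNAs made from the maternal copy, the latter ones hosts of snoRNAs and microRNAs, and Dlk1, Rtl1 and Dio3 are protein-coding genes made from the paternal copy. Rian (chr12:109603940-109661716, plus strand) measured 6.23 and 7.41 CPM in the Parental and 252 and 126 CPM in the RING1B I53S libraries, a log2 fold change of 4.79 ± 0.31 (SE) with an FDR of 8.1e-08 (edgeR). Meg3 (chr12:109541001-109571726) measured 5.21 and 6.34 against 204 and 59.0 CPM, which is 4.51 ± 0.48 on the log2 scale with an edgeR FDR of 9.7e-05. In both genes the RING1B I53S libraries lay far above the Parental ones, and replicate 1 was the higher of the pair. Mirg was higher by 4.08 ± 0.52, Rtl1 by 3.67 ± 0.57, Gm37899 by 5.10 ± 0.64, B830012L14Rik by 5.01 ± 0.91 and Gm26945 by 3.76 ± 0.59 on the log2 scale. Without RING1B I53S +OHT replicate 1 the log2 fold change was 3.36 for Meg3, 3.88 for Gm37899, 3.43 for Mirg, 3.78 for B830012L14Rik and 2.86 for Gm26945, and the calls of B830012L14Rik, Gm26945 (both FDR 0.078) and Rtl1 (FDR 0.051, edgeR) were lost. The calls of the same 3 genes were lost without Parental +OHT replicate 1, and those of B830012L14Rik and Gm26945 without Parental +OHT replicate 2. Without RING1B I53S +OHT replicate 2 it was 5.13 for Meg3, 5.75 for Gm37899 and 5.66 for B830012L14Rik, and without Parental +OHT replicate 1 it was 5.96 for Gm37899. Gm26945 lies inside Rian on the same strand, and Rtl1 overlaps microRNA genes on the other strand, so with unstranded counting reads of these transcripts cannot be told apart.

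The genes at the ends of the region were not called. Dlk1, a Notch-family membrane protein, measured 16.0 and 23.1 CPM in the Parental and 17.3 and 22.5 CPM in the RING1B I53S libraries, a log2 difference of 0.03 (95% interval −0.64 to 0.69). Dio3, a deiodinase that inactivates thyroid hormone, measured 13.1 and 10.7 against 8.93 and 13.95 CPM, a log2 difference of −0.05 (−0.81 to 0.70). The groups overlapped in both genes. Gm3379 (0.09) and Gm40576 (0.22), which lie between them, were not called either. Mir453, which lies inside Mirg, was not called on few counts (fitted log2 fold change 6.16, FDR 0.265, edgeR). It had 0 and 0 counts in the Parental and 13 and 5 counts in the RING1B I53S libraries. Without OHT, Meg3 was 4.53 and Rian 4.79 higher on the log2 scale, and the test of the difference between the contrasts gave unadjusted p = 0.971 and 0.996 (edgeR). RING1B WT cells with OHT, set against the same Parental libraries, had log2 differences of 4.09 for Meg3 and 3.97 for Rian, with 118 and 78.5 CPM of Meg3. No RING1B, PCGF2, PCGF6, SUZ12, H3K27me3 or H2AK119ub1 peak lay in the promoter of any of the 12 higher genes in the Parental, RING1B WT or RING1B I53S libraries with OHT.

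Of 26 tested imprinted genes outside that region, only H19 was called. H19, a maternally expressed noncoding RNA, measured 3.67 and 3.90 CPM in the Parental and 41.7 and 23.3 CPM in the RING1B I53S libraries, 3.10 ± 0.43 higher on the log2 scale (FDR 0.0018, edgeR). The groups were well apart, and without OHT the difference was 3.30. The call was lost without Parental +OHT replicate 1 (FDR 0.070), Parental +OHT replicate 2 (0.060) or RING1B I53S +OHT replicate 1 (0.051, edgeR). In RING1B WT cells with OHT it measured 1.81 and 5.48 CPM, around the Parental values. Mest, a paternally expressed hydrolase gene, measured 94.5 and 120.5 against 196 and 261 CPM, a log2 fold change of 1.09 with an FDR of 0.0096, under the fold threshold of the call. Peg10, a paternally expressed gene derived from a retrotransposon, was 126 and 212 against 72.5 and 69.4 CPM (log2 fold change −1.25, FDR 0.087). The median log2 fold change of the 26 genes was −0.02, against −0.01 over all tested genes.

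Eif2s3y, the Y-linked gene of a translation initiation factor subunit, had the lowest FDR of all tested genes. It measured 2.90 and 2.73 CPM in the Parental and 84.8 and 67.7 CPM in the RING1B I53S libraries, a log2 fold change of 4.75 ± 0.26 (FDR 1.8e-09, edgeR). Uty, a Y-linked relative of the demethylase gene Kdm6a, measured 1.28 and 2.63 against 20.7 and 13.8 CPM (log2 fold change 3.15, FDR 3.6e-05). Zfy1, a zinc finger gene, measured 2.13 and 1.95 against 7.42 and 7.23 CPM (1.83, FDR 0.016). All 6 tested Y chromosome genes of the list had positive values, with a median of 2.13. With no filter on low counts 8 had a value, 2 of them negative, with a median of 1.87. The summed level of the 6 was 12.3 and 17.0 CPM in the Parental and 125 and 110 CPM in the RING1B I53S libraries. Without OHT the sums were 21 and 23.6 against 159 and 180 CPM, so the groups were apart in both conditions. In RING1B WT cells with OHT, Uty was at 27.5 and 28.3 CPM and Eif2s3y at 9.06 and 7.10 CPM.

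Germline genes made up 4 of the lower calls. These genes are kept low in ESCs, and several are known targets of the PCGF6-containing variant PRC1. Dazl, an RNA-binding protein needed for germ cell development, measured 94.5 and 105 CPM in the Parental and 13.2 and 31.2 CPM in the RING1B I53S libraries, a log2 fold change of −2.16 ± 0.31 (FDR 0.0022, edgeR). Asz1, which acts in piRNA silencing of transposons, measured 21.9 and 30.4 against 3.11 and 7.83 CPM (−2.24 ± 0.40, FDR 0.014). In both, the groups were apart and RING1B I53S +OHT replicate 1 was the lowest library.

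Slc25a31, a testis ADP/ATP carrier, measured 28.7 and 34.0 against 7.42 and 11.2 CPM (log2 fold change −1.75, FDR 0.025 by edgeR). Fkbp6, a meiotic and piRNA factor, measured 65.8 and 69.1 against 10.2 and 25.1 CPM (−1.93, FDR 0.020). Sycp1, of the synaptonemal complex, measured 60.0 and 58.3 against 31.3 and 24.6 CPM, a log2 fold change of −1.08 with an FDR of 0.043, under the fold threshold. All 3 genes again had separate groups.

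Of the list of 16 germline genes, all were tested, 2 were called (Dazl and Slc25a31), both lower, and all 16 had negative values, with a median of −0.78; Asz1 and Fkbp6 are not in the list. Over all tested genes 50.6% were negative and the median was −0.01. Tex101 (−1.22), Tuba3a (−1.17), Taf7l (−1.15), Rpl10l (−0.99) and Mael (−0.84) did not pass the test, and at the other end Sycp3 (−0.17), Stag3 (−0.19) and Smc1b (−0.20) were close to 0. The summed level of the list was 1067 and 1140 CPM in Parental +OHT and 498 and 709 CPM in RING1B I53S +OHT, the lower value being replicate 1; of the 16 genes, 13 were lower in that replicate. Without it, none of the 16 was called, 14 were negative with a median of −0.63, and the edgeR FDR was 0.051 for Dazl, 0.261 for Asz1, 0.397 for Slc25a31 and 0.375 for Fkbp6. The calls of Asz1, Slc25a31 and Fkbp6 were also lost without either Parental +OHT library, and without RING1B I53S +OHT replicate 2 the log2 fold change was −2.92 for Dazl, −3.08 for Asz1 and −2.73 for Fkbp6. Without OHT the list summed to 285 and 310 CPM in Parental and 185 and 252 CPM in RING1B I53S cells, with a median log2 fold change of −0.14 and 10 of 16 genes negative. The OHT effect had a median of 2.35 over the list in Parental and 1.83 in RING1B I53S cells, 2 effects that share libraries with this contrast. Dazl was 16.7 and 22.6 CPM in Parental and 5.87 and 10.7 CPM in RING1B I53S cells without OHT. The differences between the contrasts did not pass: the unadjusted p of the interaction was 0.062 for Dazl, 0.0016 for Sycp1 and 0.0021 for Tex101, each with an FDR of 1 (edgeR).

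Promoter peaks at these genes were read from the lists of 1 library per antibody and condition, a promoter reaching 2.5 kb to either side of any start site. PCGF6 peaks covered the promoters of all 16 germline genes of the list in Parental +OHT and of 15 in RING1B I53S +OHT cells, against 22.2% and 11.2% of all tested genes. RING1B peaks covered 10 of the 16 in RING1B WT +OHT, none in Parental +OHT and 1 in RING1B I53S +OHT cells, against 14.8%, 1.72% and 3.29% of all tested genes, so the last 2 counts are near the background. Dazl, Asz1 and Slc25a31 kept a PCGF6 peak in RING1B I53S +OHT cells, and Fkbp6 had one in Parental and RING1B WT but not in RING1B I53S cells with OHT.

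The 6 lower genes on chromosome X include Rhox13, a homeobox gene of the germ line, Usp26, a testis deubiquitinase, and Nxf3, a relative of the mRNA export factor NXF1. Usp26 measured 49.5 and 65.2 CPM in the Parental and 15.9 and 17.8 CPM in the RING1B I53S libraries (log2 fold change −1.77, FDR 0.014, edgeR). 1700013H16Rik measured 9.14 and 7.31 against 0 and 0.689 CPM, and Xlr3a, one of a family of near-identical X-linked copies among which reads can be split, measured 23.5 and 17.6 against 1.81 and 5.86 CPM. The groups were apart in all 3. The calls of Usp26 and Xlr3a were lost without either Parental +OHT library or without RING1B I53S +OHT replicate 1, and that of 1700013H16Rik without replicate 1 of either line. Without RING1B I53S +OHT replicate 1 the log2 fold change went from −4.46 to −3.55 for 1700013H16Rik and from −2.40 to −1.80 for Xlr3a, and without replicate 2 to −9.39 and −3.51. Over the 639 tested genes of chromosome X the median log2 fold change was −0.04. A pair of the 6 genes are neighbours, 4930502E18Rik at chrX:53724826-53738441 and 1700013H16Rik at chrX:53742901-53757831. Usp26, 1700013H16Rik, Xlr3a and Nxf3 were also called lower without OHT, with log2 fold changes of −2.75, −5.64, −3.43 and −1.94. Rhox13 was at 0.244 and 0.989 CPM in Parental −OHT and 12 and 15.9 CPM in Parental +OHT, and at 2.01 and 2.75 CPM in RING1B I53S +OHT.

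Gm8994, Gm5662 and Gm5039 are predicted protein-coding genes with their highest levels in the Parental +OHT libraries. Their counts there were 61 and 67, 72 and 31, and 62 and 51, in that order. They passed the filter on low counts largely through that group, so the direction of their calls is not read as a result. Gm8994 measured 5.21 and 6.53 CPM in Parental +OHT and 0.100 and 0.344 CPM in RING1B I53S +OHT cells (log2 fold change −4.60 ± 0.82, FDR 0.0031, edgeR). Gm5039 measured 5.29 and 4.97 against 0.201 and 0.517 CPM, and Gm5662 measured 6.15 and 3.02 against 0.100 and 0.603 CPM. Parental cells stood above RING1B I53S cells in each, and without OHT all 3 were under 1 CPM in both lines. The 3 calls were lost without either Parental +OHT library or without RING1B I53S +OHT replicate 1. The log2 fold change of Gm5662, −3.61 with all libraries, went to −3.02 when the first Parental +OHT library was left out and to −2.90 when the first RING1B I53S +OHT library was. Leaving out the second RING1B I53S +OHT library gave −5.37, with −5.72 for Gm8994 and −4.61 for Gm5039. Gm5662 and Gm5039 lie near each other on chromosome 12, at 88270640 and 88320122, and share 97.0% of the 432 bases of their coding sequences, so reads can be split between them. They are 84.7% and 85% identical, in that order, to the coding sequence of the translation initiation factor gene Eif1ax.

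Genes of the transient state that resembles the embryo at the 2-cell stage were at low levels, highest in the Parental +OHT libraries. Zscan4c, its best-known marker, measured 3.59 and 2.54 CPM in the Parental and 0 and 0.344 CPM in the RING1B I53S libraries, and Zscan4d measured 4.18 and 2.73 against 0.201 and 0.344 CPM. Neither passed the test (edgeR FDR 0.097 and 0.090), although the groups were apart. Of 11 genes in the list, 6 passed the filter on low counts and none was called. Their summed level was 32.4 and 24.5 CPM in Parental +OHT, 6.82 and 12.3 CPM in RING1B I53S +OHT and under 2.5 CPM in each of the other 8 libraries, so members passed the filter largely through the group where they are high, and their signs and median are not read as a result. With no filter, 9 had a value, 8 of them negative, and 2 were called; with at least 10 counts in every library of the contrast 1 gene was left, at −0.97. The members come from multicopy clusters, and counts with multi-mapping reads left out cover them in part. The part of these cells in the values of Gm8994, Gm5662 and Gm5039 was not tested.

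2310003L06Rik had no count in either Parental +OHT library and 19 counts over the RING1B I53S pair, at least 6.45-fold higher against a floor of 3 counts over the group; the floor and the fold cover counting error only. It measured 1.14 and 2.35 CPM in Parental −OHT cells. Dnajc5g, a testis chaperone gene that overlaps Slc30a3 on the other strand, measured 10.1 and 6.73 against 0.702 and 2.93 CPM (log2 fold change −2.18, FDR 0.043, edgeR) and was also lower without OHT (−2.38). The call was lost without either Parental +OHT library or without RING1B I53S +OHT replicate 1, where the log2 fold change was −1.51, and without replicate 2 it was −3.57.

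The end of chromosome 14 was lower as a block in RING1B I53S cells. In gene order along the chromosome, a split was set on the contrast without OHT, with at least 20 genes on each side. The largest difference of means relative to its standard error lay at Mlnr-ps (chr14:72531024), and the contrast with OHT gave the same gene. The values without OHT given here therefore come from the contrast that set the split. Beyond it, 127 tested genes reach to Nalcn at 123627144. Their median log2 fold change was −0.91 with OHT and −0.92 without, and 117 and 112 of the 127 were negative, against 50.6% and 48.7% of all tested genes. The 474 genes before it had a median of 0.04 and 0.00. Among the 65 distal genes with a mean of at least 10 CPM, 62 were negative, with a median of −0.90 (quartiles −1.09 and −0.75), a level of 0.535 times the Parental one. The 263 proximal genes of that level had a median of −0.01.

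The block holds genes of unrelated function. Rgcc, a regulator of the cell cycle, measured 123 and 115 CPM in the Parental and 38.3 and 33.7 CPM in the RING1B I53S libraries (log2 fold change −1.72 ± 0.22, FDR 6.6e-04, edgeR). Tgds, a dehydratase gene, measured 36.8 and 28.9 against 7.42 and 12.1 CPM (−1.74, FDR 0.0032), and Pou4f1, a neuronal transcription factor, measured 14.3 and 10.2 against 3.61 and 2.84 CPM (−1.93, FDR 0.011). The groups were apart in all 3, which were the called genes of the block. The following genes were chosen after their values were seen. Ipo5, a nuclear import receptor, measured 485 and 533 against 197 and 262 CPM (−1.15, FDR 0.0033), Uchl3, a ubiquitin hydrolase, 157 and 165 against 70.4 and 78.3 CPM (−1.11, FDR 0.0033), and Tpt1, a growth-related protein, 278 and 344 against 150.2 and 173 CPM (−0.95, FDR 0.027). Of the 39 genes that were lower at an FDR under 0.05 without a fold threshold (0.215% of all tested), 23 lie in the block, none of the 16 genes higher at that FDR (0.0881%) does, and no gene on the proximal side passed.

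In RING1B WT cells the block had a median near 0. Against the same Parental +OHT libraries their median over the 127 genes was 0.07, with 58 negative, and RING1B I53S against RING1B WT, both with OHT, gave −0.95, with 108 negative. Ipo5 was at 678 and 661 CPM and Tpt1 at 306 and 317 CPM in RING1B WT +OHT cells. In windows of 30 neighbouring genes, no other chromosome had a window whose median passed 0.4 with the same sign in both contrasts, out of 16973 windows, against 112 of 572 on chromosome 14. With any 1 of the 4 libraries left out, the median of the block stayed between −0.97 and −0.85. Whether the cells of the 2 lines differ in the number of copies of this segment was not tested. Rgcc was further from the Parental line with OHT (−1.72) than without (−0.96), with unadjusted p = 0.027 for the difference (FDR 1, edgeR), and in the Parental line it was 48.3 and 37.1 CPM without OHT.

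**Figure D2:**
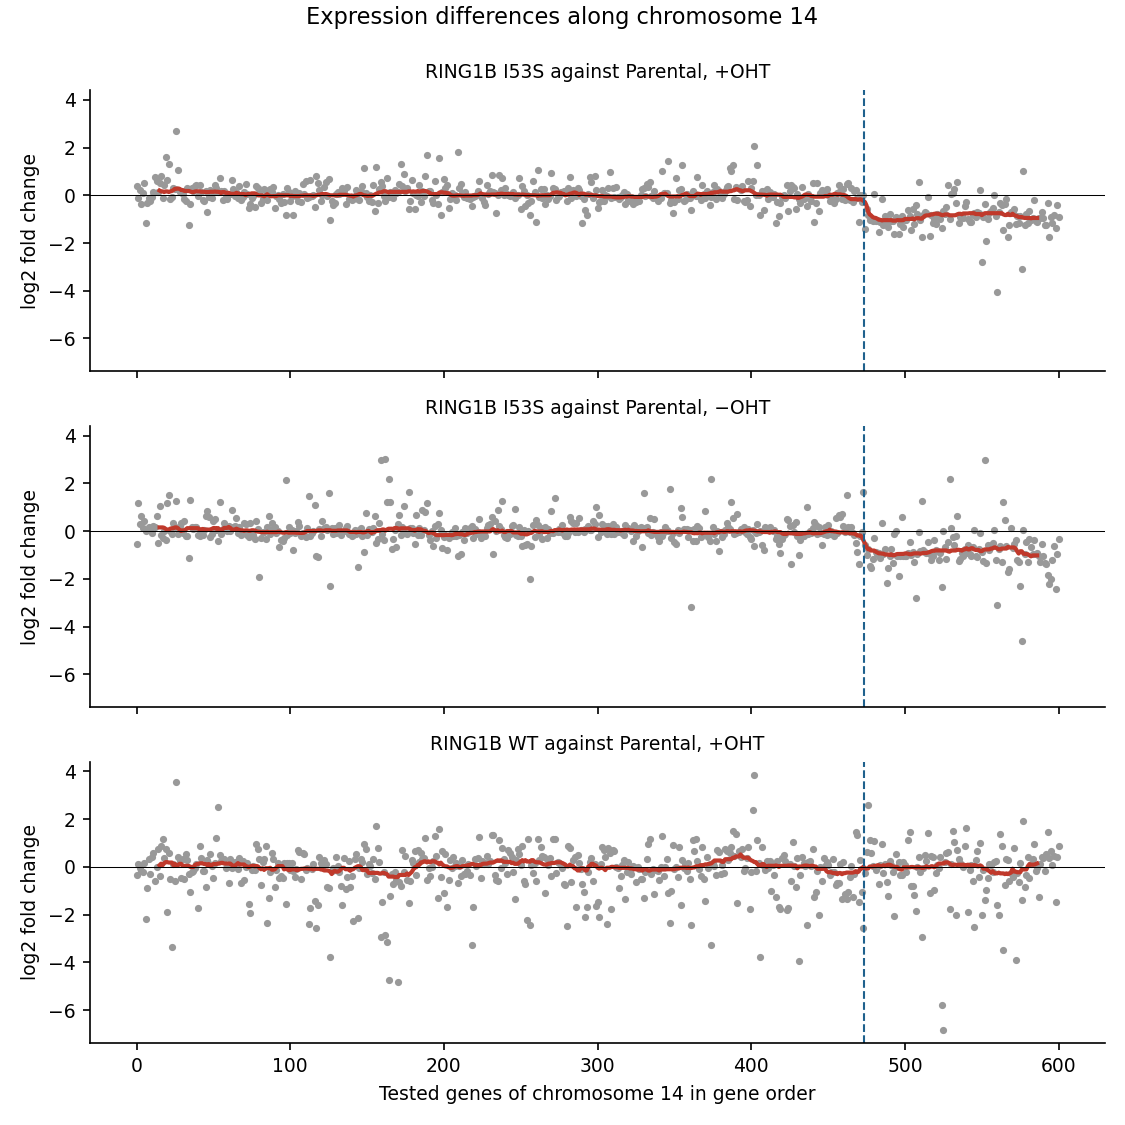
Log2 fold change (y axis) of each of the 601 tested genes of chromosome 14 in gene order (x axis) for RING1B I53S against Parental with OHT (top) and without OHT (middle), and for RING1B WT against Parental with OHT (bottom). Red lines are running medians of 30 genes and the dashed line marks Mlnr-ps; beyond it the running median drops to near −0.9 in both RING1B I53S panels and stays near 0 in the RING1B WT panel.

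The genes that RING1B binds had a median difference between the lines close to 0. RING1B target genes were taken as those with a RING1B peak of RING1B WT +OHT cells in the promoter, 2693 tested genes of 3896 names, a choice that uses no RNA value. None was called higher and 3 were called lower (Rgcc, Pou4f1, Dazl), that is, 3 of the 29 called genes, and the first 2 lie on distal chromosome 14. Target genes were 17.6% of the 17 lower genes and 14.8% of all tested genes, so the count of lower calls is near the background. The median log2 fold change was 0.01 (quartiles −0.23 and 0.26), against −0.01 over all tested genes. The median level of the target genes was 7.69 and 7.90 CPM in the Parental and 8.02 and 7.66 CPM in the RING1B I53S libraries, so the groups overlapped. Without OHT the median level was 2.04 and 1.85 against 2.47 and 2.01 CPM, and in RING1B WT +OHT cells it was 3.12 and 3.49 CPM. The OHT effect, taken for each line within its own libraries, had a median of 1.77 in Parental, 1.6 in RING1B I53S and 0.57 in RING1B WT cells. The Parental and RING1B I53S effects share the +OHT libraries with this contrast, and the RING1B WT effect shares none.

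How far a difference is bounded varies by gene. The 95% interval of the log2 fold change lay within −1 to 1 for 1135 of the 2693 target genes (42.1%), against 58.9% of all tested genes, so for the other target genes a difference of 2-fold in either direction was not bounded at this depth with 2 replicates. Target genes that had a RING1B peak in RING1B I53S +OHT and not in Parental +OHT cells numbered 235, with a median of −0.01 and none called. Those with a PCGF2 peak (a canonical PRC1 subunit) in RING1B I53S +OHT and not in Parental +OHT cells numbered 381, with a median of −0.11, quartiles of −0.42 and 0.18, 60.9% negative and none called. Target genes with any PCGF2 peak in RING1B I53S +OHT cells had a median of −0.11 (394 genes) and those without one 0.03 (2299 genes).

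**Figure D3:**
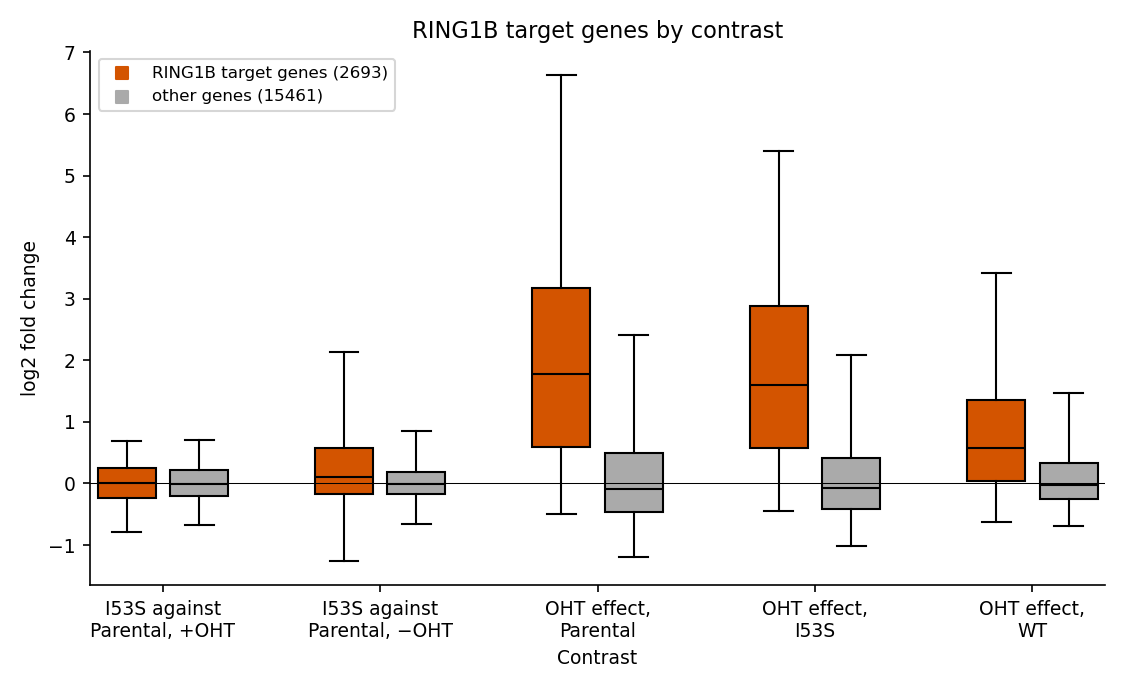
Log2 fold changes of the 2693 RING1B target genes (orange) and the 15461 other tested genes (grey) in 5 contrasts. Boxes are quartiles with the median, and whiskers reach from the 5th to the 95th percentile. The OHT effects of Parental and RING1B I53S share libraries with the first 2 contrasts, and that of RING1B WT does not. The orange box is centred on 0 for RING1B I53S against Parental with OHT and lies above 0 for the OHT effect of each line.

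Single developmental genes were compared next. Gata3, a trophoblast regulator, measured 53 and 51.8 CPM in the Parental and 35.6 and 36.8 CPM in the RING1B I53S libraries (log2 fold change −0.53, 95% interval −1.02 to −0.05, FDR 0.940 by edgeR), both far above the 0.489 and 0.495 CPM of Parental −OHT cells. Wnt5a, a secreted signalling protein, measured 8.97 and 10.5 against 9.23 and 9.56 CPM (−0.05), and Zic1, a neural transcription factor, measured 3.42 and 6.92 against 4.41 and 3.36 CPM (−0.41). The groups overlapped for Wnt5a and Zic1 and were apart for Gata3 without passing the test.

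Cdx2, of trophoblast and hindgut, measured 3.93 and 5.65 against 2.21 and 2.33 CPM (log2 fold change −1.07, FDR 0.993 by edgeR). Ccnd2, which encodes cyclin D2, measured 194 and 166 against 86.3 and 86.5 CPM (−1.06, 95% interval −1.6 to −0.53, FDR 0.120), up from 2.44 and 4.33 CPM in Parental −OHT cells. Trh, the thyrotropin-releasing hormone gene that ESCs express, measured 87.8 and 84.1 against 88.9 and 115 CPM (0.24), down from 1675 and 2076 CPM in Parental −OHT cells. None of these genes passed the test between the lines.

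Among target genes with positive values, the lowest p belonged to Vim (vimentin), at 41.8 and 39.5 against 59.8 and 73.3 CPM (log2 fold change 0.71, FDR 0.195 by edgeR). It was followed by Tenm1 (3.84, FDR 0.202), Lrrn1 (1.27, FDR 0.241), Slc12a5 (1.74, FDR 0.254) and Ablim1 (0.68, FDR 0.299). None of the 5 was called.

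No gene of the developmental lists was called. Of 39 Hox genes, which pattern the body axis, 29 were tested, 24 were negative and the median was −0.46; with no filter on low counts 31 of 39 were negative, with a median of −0.50. Their summed level was 177 and 163 CPM in Parental and 118 and 124 CPM in RING1B I53S cells with OHT, against 17.8 and 13.5 CPM in Parental cells without OHT. Of 15 tested trophoblast genes 14 were negative with a median of −0.38, and of 10 cell cycle inhibitors and D cyclins 8 were negative with a median of −0.36. None was called in either list, and 50.6% of all tested genes were negative. In the contrast without OHT the median was 0.00 for the Hox genes (10 of 29 negative), 0.27 for the trophoblast genes (5 of 15) and 0.03 for the cell cycle genes (5 of 10). These lists were not tested as sets. Primitive endoderm (median −0.07 over 12 genes), mesoderm (−0.16 over 16) and neuroectoderm genes (−0.01 over 17) had no called gene.

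No pluripotency gene and no Polycomb subunit passed the test. The 24 naive pluripotency genes had a median of 0.16, and Klf2 (0.86, FDR 0.355), Tdh (0.60, FDR 0.293) and Esrrb (0.52, FDR 0.453, edgeR) had the lowest p. None of the 15 canonical PRC1, 21 variant PRC1, 13 PRC2 and 7 H2A deubiquitinase genes tested was called, and the medians were 0.07, 0.07, 0.04 and −0.04. In these lists the 95% interval lay within −1 to 1 for 11, 21, 12 and 6 genes. Phc1, a canonical subunit, had a value of 0.45 (FDR 0.746), Pcgf6 0.39 (FDR 0.993), Suz12 of PRC2 0.39 (FDR 0.993) and Jarid2, a PRC2 cofactor, −0.42 (FDR 0.902). The 12 p53 target genes had a median of 0.09 with none called.

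**Figure D4:**
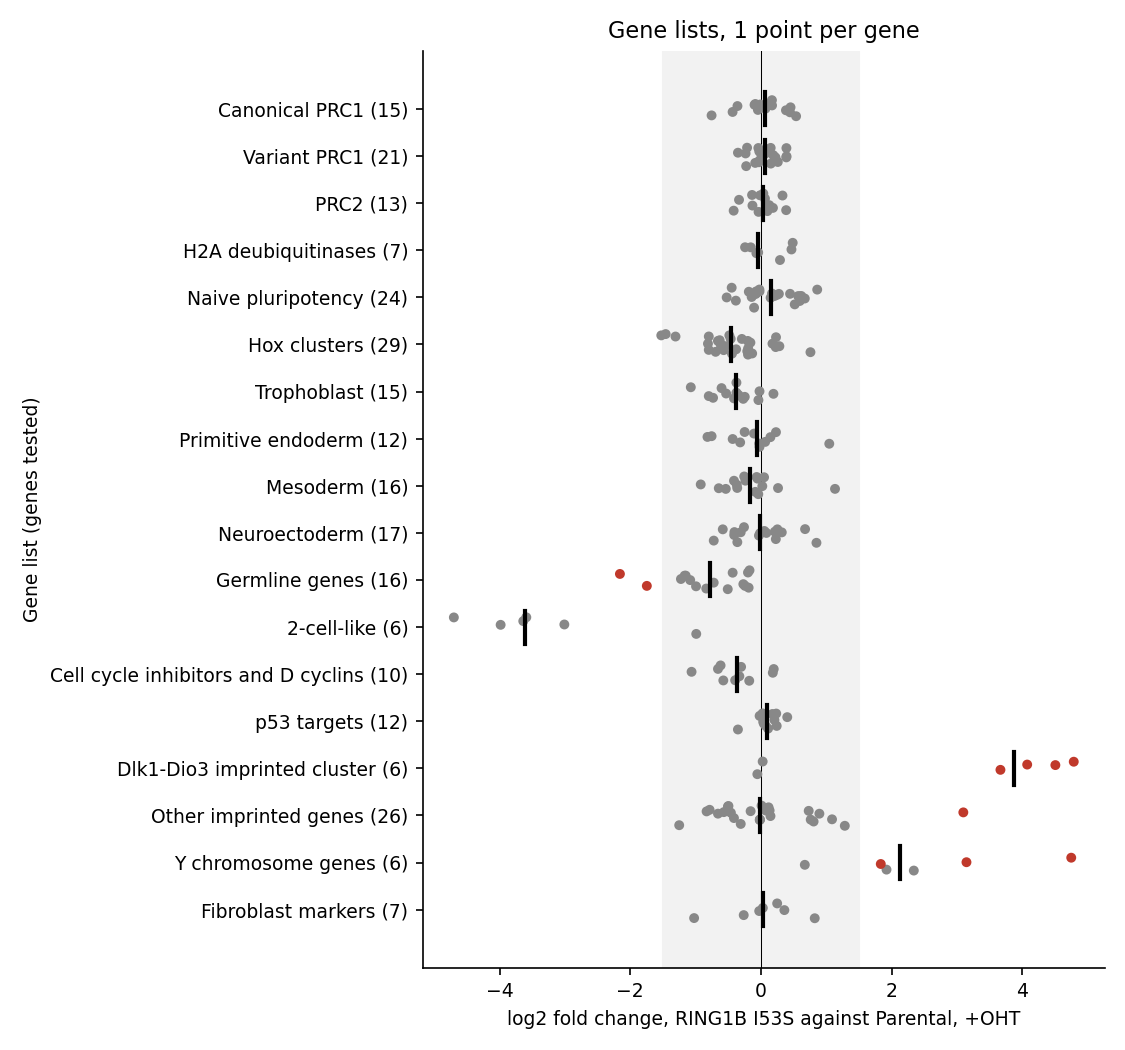
Log2 fold change of each tested gene, RING1B I53S against Parental with OHT (x axis), by gene list with the number tested (y axis). Red points are called, black bars are medians and the shaded band spans −1.5 to 1.5; the medians of the Dlk1-Dio3 and Y chromosome lists lie right of 0, and those of the germline and Hox lists left of it; the 2-cell-like genes passed the filter largely through the Parental +OHT libraries.

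Much of the contrast was present before OHT, when both lines still made their own RING1B. Without OHT, 28 genes were called (0.154%), 16 higher (0.0881%) and 12 lower (0.0661%), and 17 genes were called in both conditions, which is 58.6% of the calls with OHT and 60.7% of those without. All 29 genes called with OHT had the same sign without, and all 28 called without OHT had the same sign with it. The share of all tested genes with the same sign in both conditions is not given. The median absolute log2 fold change without OHT was 2.02 for the 29 genes called with OHT, against 0.19 over all tested genes. The 17 shared calls are the 7 transcripts of the Dlk1-Dio3 region, the 3 Y chromosome genes, H19, Tgds, Dnajc5g, Usp26, 1700013H16Rik, Xlr3a and Nxf3. The other 12 calls with OHT, among them the 4 germline genes, Rgcc, Pou4f1, Rhox13 and Gm8994, had an FDR of at least 0.05 without OHT, which does not show that they differed between the conditions.

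That difference was tested as an interaction, and none of the 18154 genes was called (0%); 488 had an unadjusted p under 0.05 with edgeR and 375 with DESeq2, which also called none. Of the 29 genes, 6 had an unadjusted p under 0.05 for the interaction, each with an FDR of 1. Hand1, a trophoblast and mesoderm factor, had a log2 fold change of −0.60 with OHT and 2.54 without, at 20.9 and 20.6 against 12.1 and 15.1 CPM with OHT and at 0.244 and 0.247 against 1.78 and 1.15 CPM without. The largest negative differences among genes of at least 5 CPM in some group were those of Htr5b, Cldn11 and St8sia4, and the largest positive ones those of Thbs4, Alx4 and Oxtr. Each of these had under 1 CPM in all 4 libraries without OHT, so the fitted differences rest on few counts. In Htr5b, for example, the Parental −OHT libraries had no count, and the levels with OHT were 7.94 and 6.53 against 3.21 and 3.36 CPM.

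**Figure D5:**
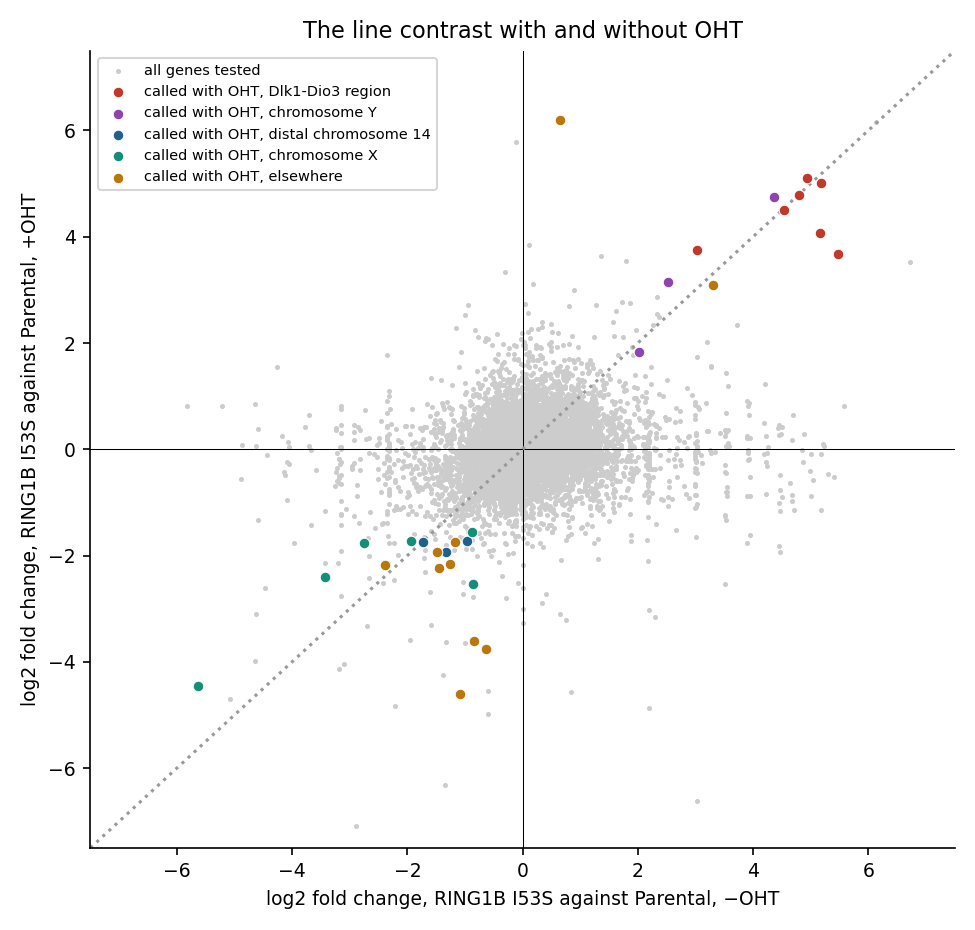
Log2 fold change of RING1B I53S against Parental without OHT (x axis) and with OHT (y axis) for the 18154 tested genes (grey) and the 29 genes called with OHT (coloured by place in the genome). The dotted line marks equal values; the Dlk1-Dio3, Y chromosome and H19 points lie near it at the upper right, and Gm8994, Gm5662 and Gm5039 lie below it.

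The transgenic lines can also be set side by side over the called genes, with the same Parental +OHT libraries in both contrasts. Of the 12 genes higher in RING1B I53S, 11 were higher in RING1B WT against Parental at an FDR under 0.05, all but H19. Of the 17 lower genes, 13 were lower in RING1B WT, all but Dnajc5g, Pou4f1, Tgds and Nxf3. The 29 genes were chosen with these Parental libraries, so these counts are not independent of that choice and are not read as a result. The share of all tested genes at that FDR is not given. With OHT in Parental cells, 13 of the 17 lower genes rose at an FDR under 0.05, against 3978 of all 18154 tested genes. Between RING1B I53S and RING1B WT with OHT, 5 of the 29 genes had an FDR under 0.05: Dnajc5g, H19, Tgds, Nxf3 and Eif2s3y. The RING1B I53S libraries of that contrast were also used to choose the 29 genes, and the share of all tested genes is again not given. Dazl was at 21.4 and 25.5 CPM in RING1B WT and 13.2 and 31.2 CPM in RING1B I53S cells with OHT, overlapping levels below the 94.5 and 105 CPM of the Parental line. Across all tested genes the contrasts differed in size: 192 genes were called higher and 1384 lower in RING1B WT than in Parental cells with OHT. Between RING1B I53S and RING1B WT with OHT, 1092 genes were called higher and 109 lower in RING1B I53S. Since all 3 lines were compared through the same few libraries and each derivative is a selected line, the effect of the transgene and that of the clone cannot be told apart at single genes.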

How the data were processed

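RNA-seq (SMART-seq2, paired-end) was analysed in 12 libraries of 3 lines, 2 replicates per group. The authors aligned reads with STAR 2.7 without multi-mapping reads, removed duplicates with samblaster and deposited raw counts per gene name from featureCounts (unstranded, GENCODE M21, GRCm38); 108 gene names cover several gene models. For 24 ChIP-seq libraries, 1 per antibody and condition, peak scores were deposited by the authors as −log10 p-values from MACS2 2.1.1 (Bowtie 1.2.2, mm10), each at least 10. A deposited table of normalized counts and 7 tables of the authors' comparisons (log2 fold changes, p-values) were not used here.

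The counts were fitted in R 4.3.3 with edgeR 4.0.16 (TMM, filterByExpr over 6 groups, quasi-likelihood test, Benjamini-Hochberg): 18154 of 55341 names were tested in 1 fit over 12 libraries, at a biological coefficient of variation of 0.181. Totals of 8140106 to 12743460 reads per library set the precision. DESeq2 1.42.0, RLE scaling, other filters, thresholds and sample sets, the replicate number as a block and each library left out were alternatives. The fits were tested on simulated data. Promoters (2.5 kb to either side of a start) and peaks were joined by an overlap of 1 bp or more in Python 3.11.15 with pandas.

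The members and the 18 gene lists were chosen with earlier results of these data known. Genes named are all called genes with OHT, the 3 with the lowest p of each list, 5 target genes in each direction, the 3 largest differences between contrasts in each direction, and Rnf2, Ring1, Gata3, Wnt5a, Cdx2, Zic1, Trh and Ccnd2; others are examples or marked as chosen after seeing values. A result that the rule would add is not reported here.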

Additional observations from a re-analysis of the deposited data

How the results depend on the processing

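With OHT the count of called genes was 29, and 28 with DESeq2, 29 with RLE scaling, 21 with only the 4 libraries of the contrast, 51 with no filter on low counts, 16 with at least 10 counts in every library of the contrast, 55 at an FDR under 0.05 without a fold threshold and 51 at a log2 fold change of at least 1. Outside chromosome Y, distal chromosome 14 and the Dlk1-Dio3 region 16 genes were called, 2 higher and 14 lower. Leaving out 1 library gave 8 to 42 calls with OHT and 11 to 23 without; the call without OHT (28) became 54 with no filter, 55 without a fold threshold and 48 at a log2 fold change of at least 1. A library left without a partner is assumed to vary like the other groups. The interaction gave 0 calls in each alternative. The median of the RING1B target genes (0.01) was 0.00 with DESeq2 and with a peak score of at least 20 (both −0.004), 0.043 with at least 10 counts in every library, 0.036 with only the 4 libraries, and −0.014 to 0.016 with 1 library left out. The chromosome 14 median stayed within the spread between replicates in each alternative. None of the 29 genes changed sign; DESeq2 kept 27 of the calls. The labels do not say what a replicate number stands for. Same-numbered libraries deviated together within a treatment (correlations of 0.235 to 0.264 with OHT and 0.474 to 0.583 without) and not always across treatments (lowest −0.019). With the replicate block 34 genes were called with OHT, 32 without and 0 for the interaction, and 28 of the 29 kept the call. With 2 replicates per group, the 95% interval lay within −1 to 1 on the log2 scale for 58.9% of tested genes.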
